A study of Homo sapiens with 4 samples.

Results

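Retinoic acid is made from retinol in successive oxidation steps, carried inside the cell by binding proteins and broken down by cytochromes of the CYP26 family, and several of the genes that encode these proteins are themselves known targets of the retinoic acid receptors. Chromatin accessibility was examined here at 9 such genes in HL-60 cells: CYP26A1 and CYP26B1 (breakdown of retinoic acid), DHRS3 (reduction of retinal back to retinol), RDH10 (oxidation of retinol to retinal), ALDH1A1 and ALDH1A2 (oxidation of retinal to retinoic acid), STRA6 (retinol uptake at the cell membrane) and CRABP1 and CRABP2 (cytosolic binding of retinoic acid). The genes are grouped by function. A locus was the whole annotated body of the gene with 50 kb on either side, and the 9 loci were described among 20136 protein-coding genes treated in the same way. All 9 genes were found in the annotation.

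HL-60, an established human line labelled as acute promyelocytic leukemia, can be driven to mature with all-trans retinoic acid (ATRA). The ATRA group was cultured in 1 µM of the compound for 4 days, and the control group was cultured in parallel with its ethanol vehicle. Each group had 2 biological replicates of this single line, and no gene was altered in either group. ATAC-seq, in which the Tn5 transposase inserts adapters into open DNA, gave 1 list of accessible sites (peaks) per library.

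The ATRA 2 list stood apart from the other lists. It held 63541 peaks with a median width of 416 bp, whereas the other 3 held 42081 to 45903 peaks with median widths of 291 to 328 bp. The lists hold no read counts, so the depth of each library was unknown, and the counts by locus are also given without ATRA 2. Each peak carries a score from 50.0 to 3100 on an unstated scale, so scores were compared only as percentiles within a list, where 100 is the highest. Promoter peaks at 12 myeloid marker genes were found at 7, 9, 8 and 7 genes in ATRA 1, ATRA 2, control 1 and control 2, and at 0 of 4 erythroid markers in every list. The other marker lists had promoter peaks at 1 to 2 of 5 T cell genes (CD8A, CD4), 0 to 1 of 4 B cell genes, 1 of 4 hepatocyte genes (TTR) and 0 to 1 of 4 epithelial genes (KRT8). A site that is open in fewer cells and a site that is less open in every cell cannot be told apart in such bulk samples.

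Peaks were present at 8 of the 9 loci in every library, and DHRS3, ALDH1A2 and CYP26A1 had more peaks in both ATRA libraries than in either control library. The 9 loci together held 36 peaks in ATRA 1, 48 in ATRA 2, 18 in control 1 and 34 in control 2. No locus had fewer peaks in both ATRA libraries, and at the other 6 loci the numbers overlapped between the groups. Thus 3 of 9 loci (33.3%) were higher and 0 of 9 were lower, where 22.2% of all protein-coding genes were higher in the same sense and 2.92% were lower. Counted by base pairs in peaks, 5 of 9 loci (55.6%; the same 3 with CRABP1 and CRABP2) were higher and 0 lower, beside 44.6% and 1.13% of all genes. The median difference of the group means (ATRA minus control) was 1.0 peaks and 708.5 bp over the 9 loci and 0.5 peaks and 653.5 bp over all genes. With 2 libraries against 2, the smallest p-value that the two-sided exact permutation test can give is 0.333, so no gene could pass 0.05, and 0 of 20136 did at an unadjusted p.

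**Figure D1:**
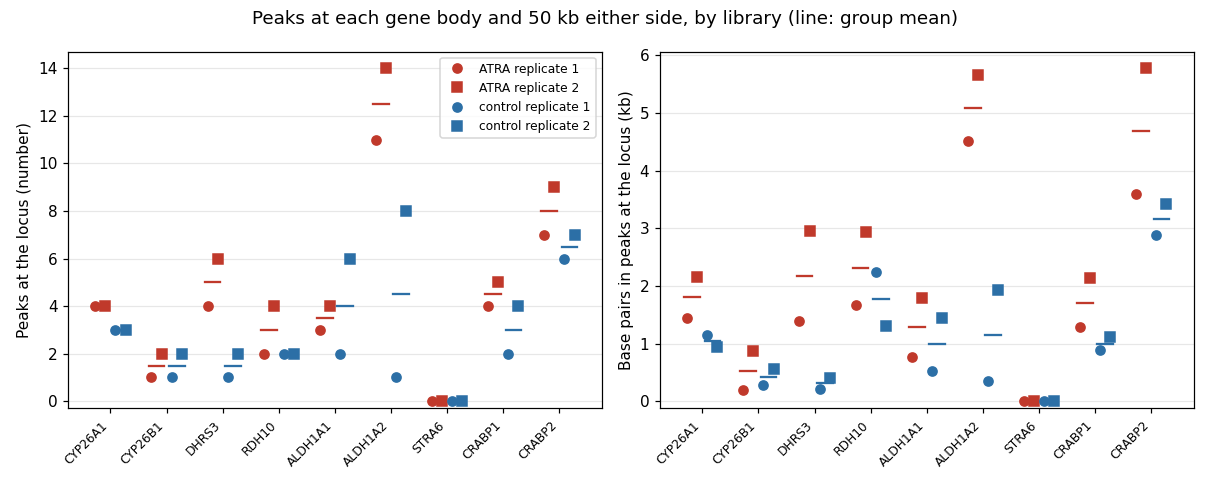
Number of peaks (left) and base pairs in peaks in kb (right) at each of the 9 loci, 1 point per library (red ATRA, blue control; circle replicate 1, square replicate 2) and a line at each group mean. The red points lie above the blue points in both panels at CYP26A1, DHRS3 and ALDH1A2, and in the right panel only at CRABP1 and CRABP2. The groups overlap in both panels at CYP26B1, RDH10 and ALDH1A1, and STRA6 is at 0 throughout.

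Overlapping peaks of the 4 lists were merged into regions, 55 of which lay at the 9 loci among 78046 in the genome. At the 9 loci, 11 regions (20.0%) had a peak in both ATRA lists and in neither control list, beside 8.93% of all regions. Only 1 region (1.82%) had a peak in both control lists and in neither ATRA list, beside 3.37% of all regions. A further 13 regions (23.6%) had a peak in all 4 lists, beside 30.3% of all regions. Of these 13, the score percentile was higher in both ATRA lists at 5 (38.5%, beside 29.2% of all such regions) and lower in both at 1 (7.69%, beside 12.8%). The 11 ATRA-only regions were not spread evenly: 7 lay at ALDH1A2, 2 at DHRS3, 1 at CYP26A1 and 1 at CRABP1. Without ALDH1A2, 4 of 39 regions (10.3%) were ATRA-only, which is near the share over all regions. There were 15 regions in a single list, of which 9 were in ATRA 2, 4 in control 2, 2 in ATRA 1 and 0 in control 1. That is 27.3% of the regions at the loci, beside 33.4% of all regions (19.1% in ATRA 2, 5.82% in control 2, 3.79% in ATRA 1 and 4.69% in control 1).

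Sequences of the sites on which the comparison turns are shown from GRCh37 (the hg19 assembly), read 5′ to 3′ in the direction of the gene. Retinoic acid receptors bind direct repeats of a short half-site, AGGTCA or a close variant, separated by 1, 2 or 5 bases (DR1, DR2 and DR5), which were searched on both strands. The first pair are the DR5 matches, shown in 30 bases with the element in capitals. They were chosen because they lie near start sites of DHRS3 and CYP26A1. The DHRS3 element lies inside an ATRA-only peak, downstream of the start of a short transcript. The CYP26A1 element has no peak in any list.
DHRS3 at chr1:12655988-12656017, minus strand: gctccgGGTTCAGCCACAGGTCAgcggcgc
CYP26A1 at chr10:94833554-94833583, plus strand: taaagaTGAACTTTGGGTGAACTaattgtc

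In the CYP26A1 sequence the repeat reads on the opposite strand. It lies 82 bp upstream of the canonical start (the start of the transcript that the annotation takes as the gene's main one) and in an exon of another CYP26A1 transcript, chr10:94833232-94833591. A DR5 was found in the 300 bases upstream of 12 of 19515 canonical starts (0.0615%), and CYP26A1 was the only one of the 9 genes among them. DR1 and DR2 were found there at 0.184% and 0.154% of starts, at none of the 9 genes.

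The next set holds 200 bases about the centre of 3 ATRA-only regions and of the control-only region. The ALDH1A2 region is shown for its DR2, and the other 3 were chosen after their values were seen, as the highest ranked ATRA-only regions of DHRS3 and CYP26A1 and as the only control-only region. Capitals mark matches to DR2 at ALDH1A2, to TTGCNNAA (CEBP) and then GATA on the opposite strand at DHRS3, and at CYP26A1, in order, to GATA in 2 places on the opposite strand, GAGGAAGT (PU.1) and AACCACA (RUNX, opposite strand). The ALDH1A1 region had no match to these motifs.
DHRS3 at chr1:12664340-12664539, minus strand: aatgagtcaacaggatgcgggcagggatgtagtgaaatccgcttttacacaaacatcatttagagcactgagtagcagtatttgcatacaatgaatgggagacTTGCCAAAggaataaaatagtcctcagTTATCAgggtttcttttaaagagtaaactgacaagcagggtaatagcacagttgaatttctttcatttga
CYP26A1 at chr10:94884525-94884724, plus strand: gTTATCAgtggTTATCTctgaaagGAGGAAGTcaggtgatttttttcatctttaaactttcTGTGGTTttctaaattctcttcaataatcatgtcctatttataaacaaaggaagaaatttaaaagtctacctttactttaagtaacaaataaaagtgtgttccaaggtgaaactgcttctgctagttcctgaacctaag
ALDH1A2 at chr15:58574594-58574793, minus strand: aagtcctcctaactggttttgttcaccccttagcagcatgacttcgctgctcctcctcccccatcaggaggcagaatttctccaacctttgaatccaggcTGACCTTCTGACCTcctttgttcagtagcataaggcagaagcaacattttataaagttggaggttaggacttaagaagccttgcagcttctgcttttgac
ALDH1A1 at chr9:75624912-75625111, minus strand: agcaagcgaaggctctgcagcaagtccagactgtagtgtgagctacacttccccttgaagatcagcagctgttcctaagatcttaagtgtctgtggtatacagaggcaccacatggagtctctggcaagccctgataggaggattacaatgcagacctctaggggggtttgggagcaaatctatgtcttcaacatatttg

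In these 200-base windows over all 55 regions, DR5 was found in 1 and DR2 in 1, both ATRA-only, and DR1 in 0. Over all 78046 regions the shares were 0.0974% for DR5, 0.106% for DR2 and 0.0807% for DR1, and over all 6972 ATRA-only regions they were 0.387%, 0.316% and 0.215%. PU.1 was found in 5 of the 55 regions (8.94% of all regions hold it), CEBP in 3 (12.3%), RUNX in 3 (8.55%) and GATA, searched as AGATAA or TGATAA on both strands, in 10 (18.8%). The matches describe letters in these windows and do not show binding.

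DHRS3 had 4 peaks in ATRA 1, 6 in ATRA 2, 1 in control 1 and 2 in control 2. The means were 5.0 ± 1.41 and 1.5 ± 0.71 peaks (SD, n = 2 each), and the difference of 3.5 peaks had an exact permutation p of 0.333, the smallest possible, and 1.00 after adjustment over all genes. The peaks covered 1393 and 2949 bp in the ATRA libraries against 216 and 410 bp in the controls, so the groups did not overlap on either scale. DHRS3 was the only locus of the 9 with more peaks in ATRA in all 13 alternative settings, with a difference of 2.5 to 4.5 peaks.

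Of the 6 DHRS3 regions (gene at chr1:12627939-12678216, minus strand), 2 were ATRA-only and both lay within the transcribed body. The more downstream, chr1:12655737-12656284, was centred 310 bp downstream of the start of a short annotated DHRS3 transcript. It lay 22.2 kb downstream of the canonical start and held the DR5 shown above. Its peaks were 327 bp wide at percentile 65.7 in ATRA 1 and 548 bp wide at percentile 57.1 in ATRA 2. The nearest control peaks to the DR5 were 23891 and 23942 bp away. The second, chr1:12664120-12664760, lay in an intron 13.8 kb downstream of the canonical start, with peaks of 525 and 593 bp at percentiles 76.4 and 87.9, the highest ranks at the locus. Both regions were also ATRA-only among the upper-scoring part of each list (the upper 50%) and with all lists cut to an equal number of peaks.

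A region 1.8 kb upstream of the canonical start had a peak in all 4 lists, at percentiles 6.1 and 55.5 in ATRA and 31.9 and 52.1 in control. No list had a peak at the canonical start itself, taken as 1 kb upstream to 100 bp downstream. A region 41.0 kb upstream lay in an intron of AADACL4. It was at percentiles 52.0 and 49.0 in ATRA and 8.2 in control 2, and was absent from control 1. Both ATRA lists thus ranked it above control 2, while control 1 gave no rank. With all lists cut to an equal number of peaks the region became ATRA-only, because the cut removed the low-ranked control 2 peak. The other 2 regions were in ATRA 2 alone, at percentiles 8.8 and 5.4.

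**Figure D2:**
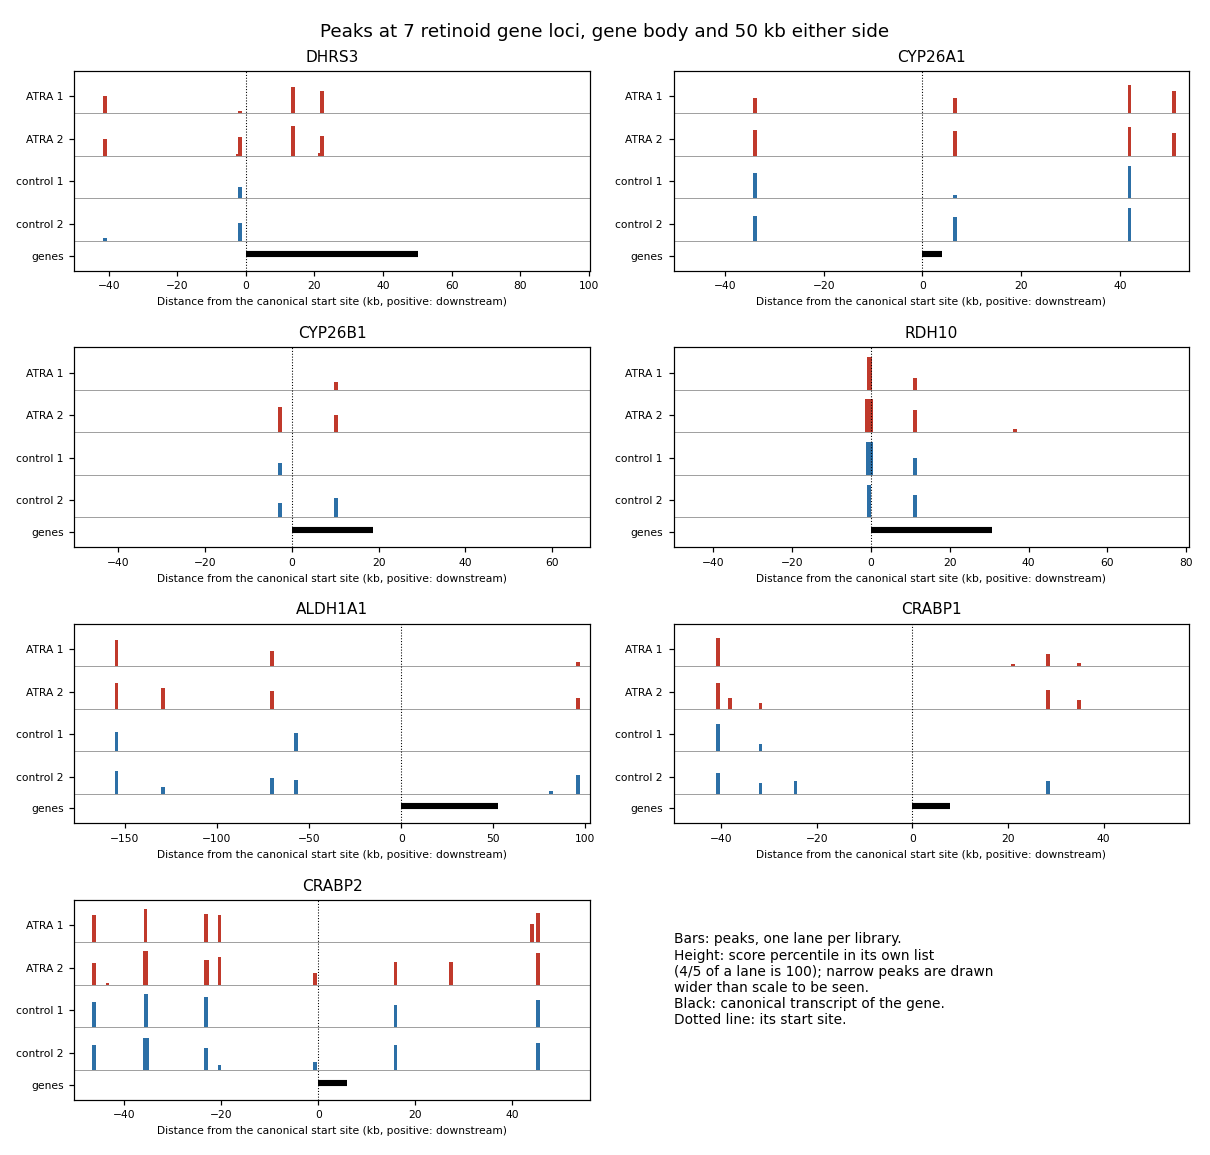
Peaks of each library (lanes; red ATRA, blue control) at 7 loci against the distance from the canonical start site in kb, with bar height showing the score percentile in its own list and the black bar the canonical transcript. At DHRS3 the lanes of ATRA 1 and ATRA 2 hold peaks 13.8 and 22.2 kb downstream of the start where the control lanes are empty, and at CYP26A1 they hold an extra peak at 51.0 kb.

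CYP26A1, the main enzyme of retinoic acid breakdown and a classical retinoic acid target, had a single ATRA-only region, far downstream, and no peak at its start in any library. It had 4 peaks in each ATRA library and 3 in each control library, a difference of 1.0 (means 4.0 and 3.0, SD 0.0 in both groups, n = 2 each) with an exact permutation p of 0.333 (1.00 adjusted over all genes). The base pairs in peaks were 1452 and 2153 in ATRA and 1154 and 940 in control. The peak nearest to the canonical start was 6.4 kb away in all 4 libraries, and the DR5 upstream of the start lay 6454 to 6514 bp from the nearest peak.

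The ATRA-only CYP26A1 region, chr10:94884307-94884943, was intergenic, 46.7 kb past the end of the gene (chr10:94833232-94837642, plus strand). Its peaks were 348 bp wide at percentile 65.5 in ATRA 1 and 603 bp wide at percentile 67.8 in ATRA 2. It lay close to the limit of the locus, and with 25 kb on either side in place of 50 kb the difference in peak number was 0.0. Among the upper 50% of each list the difference at the locus was 0.5 and the groups overlapped. The region itself was still ATRA-only there and with all lists cut to an equal number of peaks. The neighbouring region 41.9 kb downstream of the start, chr10:94875215-94875943, moved the other way in rank. It was at percentiles 82.4 and 83.4 in ATRA and 95.4 and 97.3 in control, the only one of the 13 shared regions that ranked lower in both ATRA lists. The same 3 shared regions lie at CYP26C1, the adjacent gene of the same family, which had 3 peaks in every library. Of the remaining pair of shared regions, the one 33.9 kb upstream lay in an intron of EXOC6, and the one 6.6 kb downstream had percentiles from 8.7 (control 1) to 72.3 (ATRA 2). Neither separated the groups.

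CYP26B1, the second enzyme of retinoic acid breakdown, showed no separation of the groups, with 1 and 2 peaks in ATRA and 1 and 2 in control (difference 0.0, exact permutation p = 1.00). Its 193 and 871 bp in ATRA enclosed the 278 and 555 bp in control. A region 2.6 kb upstream of the start was at percentile 73.8 in ATRA 2, 33.2 in control 1 and 40.8 in control 2 and absent from ATRA 1. An intronic region 10.2 kb downstream of the start was absent from control 1 alone, at percentiles 22.6, 51.3 and 56.3 in ATRA 1, ATRA 2 and control 2. Neither of the 2 regions was in all 4 lists, and no start site of the gene had a peak.

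RDH10, the retinol dehydrogenase that feeds retinoic acid synthesis, was the only one of the 9 genes with a peak at its canonical start in all 4 libraries. Over all genes, 39.5% of canonical starts had a peak in all 4 lists and 46.5% had none in any list. The RDH10 start peak was among the highest ranked in each list, at percentiles 97.2 and 96.6 in ATRA and 95.0 and 94.7 in control, with widths of 1382, 1977, 1900 and 1075 bp. The percentile was higher in both ATRA lists by a mean of 2.1 points, while the widths overlapped between the groups. The region also covers a start of RPL7, a ribosomal protein gene on the other side, so it cannot be assigned to RDH10 alone. The locus had 2 and 4 peaks in ATRA and 2 and 2 in control (difference 1.0, exact permutation p = 1.00), and the 2 extra peaks of ATRA 2 were weak, at percentiles 8.0 and 0.3. An intronic region 11.2 kb downstream was in all 4 lists at percentiles 35.5, 64.6, 47.7 and 64.5, and the groups overlapped.

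ALDH1A2, which makes retinoic acid from retinal, had the largest difference in peak number of the 9 loci, but that difference lay in sequence outside its canonical transcript. Its peak numbers were 11 in ATRA 1, 14 in ATRA 2, 1 in control 1 and 8 in control 2. The means were 12.5 ± 2.12 and 4.5 ± 4.95 peaks (SD, n = 2 each), a difference of 8.0 with an exact permutation p of 0.333 (1.00 adjusted over all genes). The control libraries thus differed from each other by almost as much as the group means did. Without control 1 the difference was 4.5 peaks and without control 2 it was 11.5. With all lists cut to an equal number of peaks it was 5.0, and the groups then overlapped.

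The annotated ALDH1A2 gene body, chr15:58245622-58790065 on the minus strand, spans 544 kb because of long transcripts that run across AQP9 (a glycerol and water channel) and LIPC (hepatic lipase). The canonical transcript occupies chr15:58245627-58357909 alone. With the canonical transcript and 50 kb on either side as the locus, ALDH1A2 had 0 and 1 peaks in ATRA and 0 and 1 in control, and the difference was 0.0. No start site of ALDH1A2 had a peak in any list. All 7 ATRA-only regions lay 81.5 to 461.1 kb upstream of the canonical start. One of them was in AQP9, at chr15:58438954-58439782 with percentiles 55.6 and 72.1, and 3 were in LIPC, at percentiles 35.5 to 77.5.

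The strongest of the 7 was chr15:58574358-58575029, which lay between AQP9 and LIPC in an intron of the long transcripts, 216.8 kb upstream of the canonical start and 3.2 kb upstream of the start of another ALDH1A2 transcript. It was at percentiles 85.0 and 90.9 in ATRA 1 and ATRA 2, with widths of 631 and 628 bp, and held the DR2 shown above. The 2 further regions between AQP9 and LIPC were at percentiles 68.8 and 26.6, and 6.5 and 26.4. The only ALDH1A2 region in all 4 lists, chr15:58623773-58624838, ranked higher in ATRA, at percentiles 93.6 and 94.6 against 74.3 and 67.5, and was wider there, at 960 and 968 bp against 358 bp and, as 2 peaks together, 760 bp. This was the largest difference in rank, 23.2 points between group means, among the 13 shared regions of the 9 loci.

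**Figure D3:**
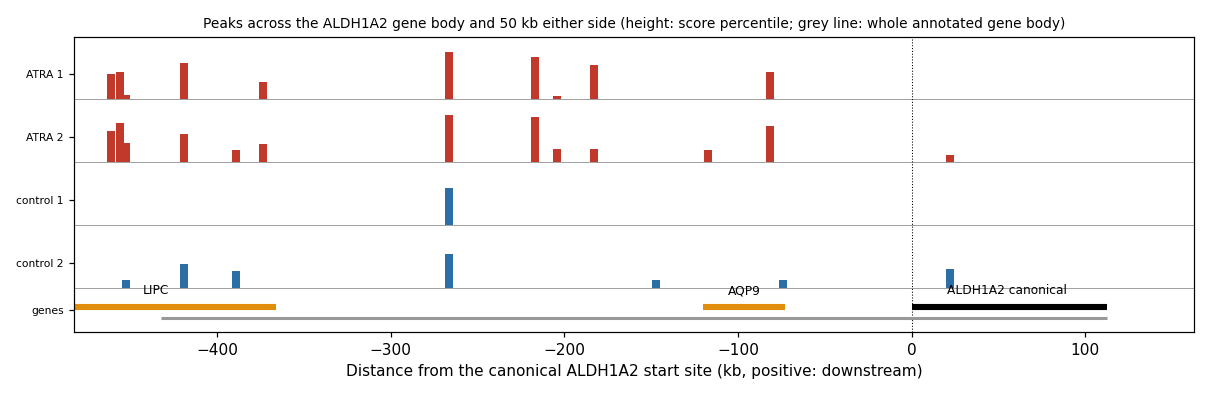
Peaks of the 4 libraries across the ALDH1A2 gene body and 50 kb either side against the distance from the canonical start in kb (bar height, score percentile in its own list; black, canonical ALDH1A2; orange, AQP9 and LIPC; grey, whole annotated gene body). The peaks lie almost entirely upstream of the canonical transcript, over and between AQP9 and LIPC, with 11 and 14 in the ATRA lanes and 1 and 8 in the control lanes.

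ALDH1A1, the other retinal-oxidizing enzyme, held the only control-only region of the 9 loci. Its peak numbers were 3 and 4 in ATRA and 2 and 6 in control (difference -0.5, exact permutation p = 1.00), and the control libraries enclosed the ATRA libraries. The control-only region, chr9:75624842-75625182, lay 57.0 kb upstream of the canonical start in an intron of a longer transcript, with peaks of 286 and 244 bp at percentiles 52.7 and 40.0. Peaks of this middle rank were lost from the control-only class when only the upper 50% of each list was kept. A region 154.6 kb upstream, beyond the longest transcript, was in all 4 lists and ranked higher in ATRA, at 75.2 and 76.4 against 56.3 and 67.8. No start site of ALDH1A1 had a peak, and the nearest peak to the canonical start was 56.9 to 70.0 kb away.

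CRABP2, which carries retinoic acid to its receptors, had the densest locus of the 9 and a peak at its start in one library of each group. The locus had 7 and 9 peaks in ATRA and 6 and 7 in control (difference 1.5, exact permutation p = 0.667), so the groups overlapped by number. By base pairs they did not, with 3602 and 5776 bp in ATRA against 2891 and 3420 bp in control (exact permutation p = 0.333, and 0.729 adjusted over all genes). The peak at the canonical start was at percentile 33.8 in ATRA 2 and 23.6 in control 2 and was absent from replicate 1 of both groups. Of its 10 regions, 4 were promoters, and only 1 of the 10 had CRABP2 as the gene of the nearest start. The 4 regions in all lists lay at or near starts of ISG20L2, MRPL24 and HDGF or 17.2 kb from a start of NES. The top region, at the MRPL24 start (chr1:156710325-156711547), was at percentiles 99.1 and 98.5 in ATRA and 97.1 and 93.5 in control. The region near NES, chr1:156629565-156630454, was at 86.7 and 93.2 in ATRA and 80.0 and 77.8 in control. Both thus ranked higher in ATRA, though neither is nearest to CRABP2.

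CRABP1, the other retinoic acid binding protein, had 4 and 5 peaks in ATRA and 2 and 4 in control (difference 1.5, exact permutation p = 0.667), and the groups overlapped at 4. Its base pairs were 1283 and 2134 in ATRA against 889 and 1111 in control. The ATRA-only region, chr15:78667388-78667776, was intergenic, 34.9 kb downstream of the start, with low ranks of 8.4 and 26.0. It was no longer ATRA-only among the upper 50% of each list or with lists cut to an equal number of peaks. The top region of the locus was the SKIC8 promoter, 40.7 kb upstream, in all 4 lists at percentiles 83.4, 75.2, 79.8 and 61.4. No list had a peak at the CRABP1 start, and the nearest lay 21.0 to 31.6 kb away.

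STRA6, the membrane receptor for retinol bound to its plasma carrier, had no peak in any of the 4 lists within its body or 50 kb either side, chr15:74471807-74504608. Of all protein-coding genes, 702 (3.49%) had no peak in any list. The nearest peak to its canonical start was 102.3 kb away in ATRA 1, 75.0 kb in ATRA 2, 74.9 kb in control 1 and 136.5 kb in control 2. A locus without a called peak can still hold accessible sites below the threshold of the peak caller.

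**Figure D4:**
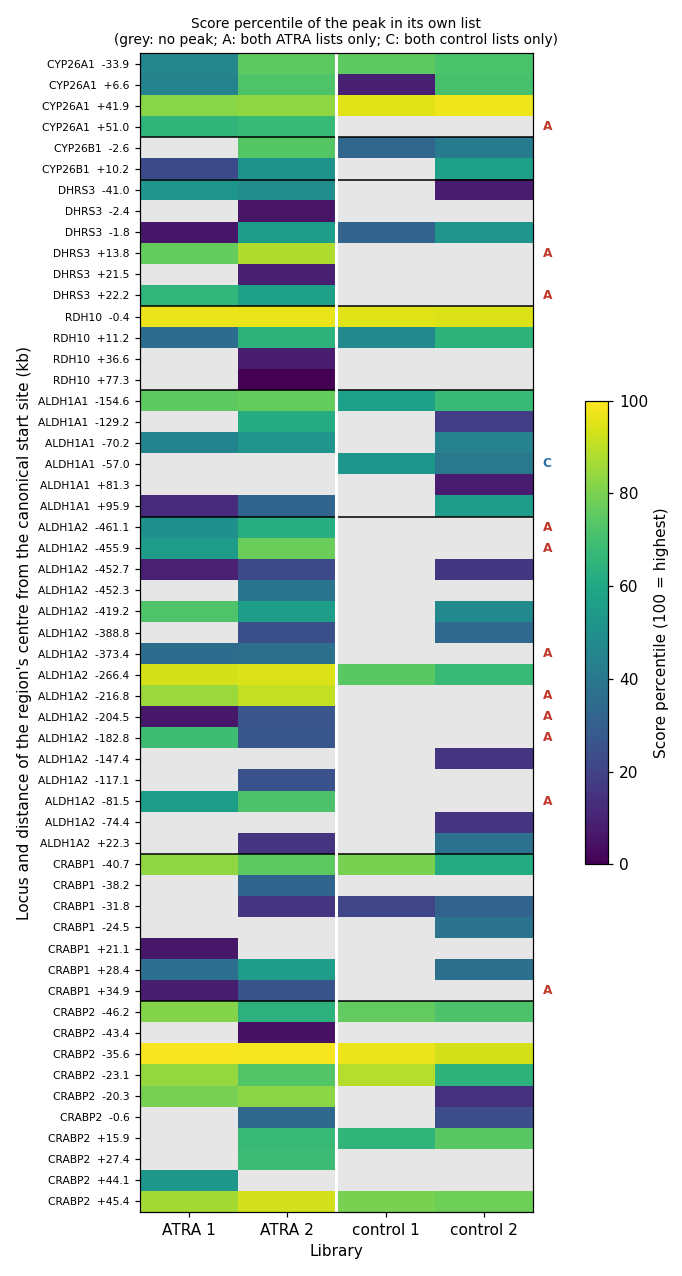
Score percentile of each of the 55 regions (rows, ordered by locus and by distance from the canonical start in kb) in each of the 4 libraries (columns), with grey where a list has no peak. A marks the 11 ATRA-only regions, 7 of them at ALDH1A2, and C the control-only region at ALDH1A1.

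Per 100 kb of locus, the mean peak number over the 4 libraries was 6.83 at CRABP2, 3.48 at CRABP1, 3.35 at CYP26A1, 2.16 at DHRS3, 1.91 at RDH10, 1.34 at ALDH1A1, 1.32 at ALDH1A2, 1.26 at CYP26B1 and 0.0 at STRA6. CRABP2 lay above every other locus in each library (5.65 to 8.47 per 100 kb), and STRA6 lay below. The ranges of neighbours from CRABP1 to CYP26B1 overlapped, so their order is not fixed by these libraries.

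Another 28 genes of retinoid metabolism and transport were counted in the same way. More peaks in both ATRA libraries were seen at 9 of them (32.1%), fewer at 1, overlapping numbers at 17 and no peak at 1 (SDR16C5), beside 22.2% higher and 2.92% lower of all protein-coding genes. The median difference was 0.5 peaks, the same as over all genes. The largest differences among those 10 were at RDH13 (10 and 12 peaks in ATRA, 6 and 6 in control) and RBP4, the plasma carrier of retinol (6 and 8 against 2 and 4). The next were RDH12 (3 and 6 against 2 and 1), RDH11 (3 and 5 against 2 and 1), and TTR, the partner of RBP4 in plasma (4 and 4 against 2 and 2). The gene with fewer peaks was ADH4, an alcohol dehydrogenase, with 1 and 1 in ATRA against 2 and 3 in control. RDH11 and RDH12 are neighbours and share peaks.

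The longer ATRA 2 list bears on these counts, and so do the differences between the control lists. At the 9 loci control 1 held 18 peaks (0.0428% of its list) and control 2 held 34 (0.0741%). ATRA 1 held 36 (0.0828%) and ATRA 2 held 48 (0.0755%), so ATRA 1 and control 2 were close. Without ATRA 2, the same 3 loci (CYP26A1, DHRS3 and ALDH1A2) had more peaks in ATRA and 0 had fewer, beside 25.5% of all genes with more and 19.9% with fewer. The same 5 loci were higher by base pairs and 1 (CYP26B1) was lower, beside 45.4% and 25.1% of all genes. The median difference was then 283.0 bp over the 9 loci and 97.5 bp over all genes. The difference fell from 1533.5 to 446.5 bp at CRABP2, from 708.5 to 283.0 bp at CRABP1 and from 1858.0 to 1080.0 bp at DHRS3. With every list cut to its top peaks by score so that all 4 held an equal number, 2 loci remained higher (CYP26A1 and DHRS3) and 0 lower, beside 13.5% of all genes higher and 10.9% lower. Whether depth contributed to any of these differences was not tested, because the lists hold no read counts.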

How the data were processed

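ATAC-seq was performed on 4 libraries, and the sample titles gave group and replicate number. Per the methods and the labels, reads were trimmed (cutadapt) and aligned to hg19 (Bowtie in the methods, Bowtie2 in the submitters' processing notes). Peaks were called by library, with MACS2 at default settings in the methods, while the processing notes name both MACS and MACS2. A Tn5 shift, duplicate removal and a blacklist filter are not given in the sources used here, so edges may be offset and repeats may contribute. The deposited lists give 5 columns per peak, and the deposited score has no stated scale, so it was used only as a rank within a list. Read depth is unknown, and each value therefore has no counting interval.

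The 9 genes and the lists of other retinoid genes, markers and motifs were chosen with earlier results of these data known. Gene bodies came from GENCODE release 44 on GRCh37. All 24 chromosomes of the lists were in the reference. Peaks overlapping a locus by at least 1 bp were counted, and a peak can count for several genes. Peaks of the 4 lists that overlapped by 1 bp were merged into regions, with the highest percentile per list kept. Differences of group means were tested per gene by the exact two-sided permutation test over the 6 divisions of the libraries, with Benjamini-Hochberg adjustment over all protein-coding genes. The scripts were tested on simulated data. All 9 genes were named, with those regions at their starts, in 1 group only or of highest percentile. Of the other retinoid genes, up to 6 with the largest differences among those whose groups did not overlap were named. Python 3.11.15, numpy 2.4.6, pandas 2.3.3, pysam 0.24.0, samtools 1.23.1 and matplotlib 3.10.9 were used.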

Additional observations from a re-analysis of the deposited data

How the results depend on the processing

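No test here could pass 0.05, so the alternatives were compared by value. Loci with more peaks in ATRA numbered 3, and 3 to 6 when a library was left out (6 without ATRA 1 or control 2, beside 56.6% and 35.3% of all genes). Loci with fewer numbered 0, and 0 to 1 (ALDH1A1, without control 1). The replicate block compares libraries of the same number in a paired way. With it, 5 loci were higher, 7 shared regions ranked higher and the smallest exact sign-flip p was 0.500. This rule is looser than the main one, and the shares over all genes and all shared regions were not computed under it. Nothing in the labels pairs the numbers, and the deviations of same-numbered libraries correlated at 0.21 over 23654 shared regions.

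ATRA-only regions numbered 11. They numbered 7 within gene bodies, where the total number of regions is not given here. The study's rule compares only peaks shared by the replicates of a group, so a region with a peak in a single control list can still count. Under it 19 regions were counted for ATRA, and the share over all regions was not computed. With canonical transcripts and 50 kb (chosen after seeing the data) ATRA-only regions numbered 4 of 36 (11.1%), near the 8.93% of all regions. With a library left out they numbered 11 to 20, the highest without ATRA 1 and 19 without control 2. The share over all regions rose from 8.93% to 29.2% without ATRA 1 and to 14.6% without control 2. Control-only regions numbered 1. They numbered 2 with lists of equal number and 0 in the upper 50%, beside 6.05% and 4.20% of all regions. With 200-bp peaks they numbered 2 and with canonical transcripts 0. Under the study's rule, which allows a peak in a single ATRA list, 4 were counted. The shares over all regions were not computed with 200-bp peaks or under that rule. With a library left out, control-only regions numbered 1 to 5 (4 without ATRA 2, 5 without control 1, beside 10.9% and 9.74% of all regions). Regions in all 4 lists numbered 13. They numbered 3, 6 and 22 with gene bodies, 25 kb and 100 kb, and 6 where the gene's own start was nearest. With a library left out they numbered 13 to 21, the highest without control 1. The total number of regions in these windows, and the share over all regions with a library left out, are not given here. These counts therefore cannot be read as changes at the loci. Regions ranked higher in ATRA numbered 5. They numbered 3 with lists of equal number, 3 with 200-bp peaks, 2, 2 and 9 with gene bodies, 25 kb and 100 kb, 2 by nearest start, 3 with canonical transcripts and 6 to 11 with a library left out (9 without ATRA 1, 11 without control 1). Regions ranked lower numbered 1. They numbered 3 with lists of equal number, 0, 0 and 3 with gene bodies, 25 kb and 100 kb, and 3 to 4 with any library left out. For both directions of rank, the shares over all shared regions were not computed under these alternatives. Leaving a library out also loosens the rule, so those counts cannot be read as a change particular to the loci.

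The direction of a difference turned at 3 loci, whose groups overlapped. Peak number at ALDH1A1 was 0.5 with 100 kb and -2.5 to 1.5 with a library left out. Base pairs at ALDH1A1 differed by -100.0 with 200-bp peaks, -26.5 in the gene body and -220.5 to 807.5 with a library left out. Base pairs at CYP26B1 differed by -133.0 with 100 kb and -223.5 to 454.5 with a library left out, and at RDH10 by -99.5 to 1164.5. The cause was not tested. Of all counts recomputed under an alternative, 38 changed by over 1.5 times and 62 by less. Unknown depth limits every absence of a peak.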
